A study of Mus musculus with 6 samples.

Results

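The type I cadherins Cdh1, Cdh2, Cdh3 and Cdh4, the T-cadherin gene Cdh13 and the catenin genes Ctnna1, Ctnna2, Ctnnb1, Ctnnd1 and Ctnnd2 were examined by gene symbol, and all 10 were found among the 56805 genes of the count table. RNA came from mouse motor neurons of the cervical spinal cord and of the thoracic spinal cord at e12.5, in a study that concerns Hox5 activity and the diversity of motor neurons. Each region had 3 libraries of ribosomal RNA-depleted total RNA, all labelled control genotype with no treatment. The sources used here do not give strain, alleles, the way the motor neurons were isolated or the number of embryos per library, so the spread between libraries may be partly technical and the p-values measure only that spread.

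Type I (classical) cadherins are calcium-dependent adhesion receptors that bind the same or similar cadherins on a neighbouring cell. Inside the cell, the cadherin tail binds beta-catenin, beta-catenin binds alpha-catenin, and alpha-catenin couples the complex to actin, while delta-catenins bind closer to the membrane and keep the cadherin at the surface. In the developing spinal cord N-cadherin (Cdh2) holds neuroepithelial cells together, and cadherin-catenin adhesion acts with type II cadherins in the clustering of motor neuron cell bodies into columns and pools. Beta-catenin is also the transcriptional effector of canonical Wnt signalling.

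Of these 10 genes, 9 were tested between cervical and thoracic libraries and none of the 9 was called, while Cdh1 had too few counts to test. The 8 abundant members had region means within 1.19-fold of each other and Cdh3 was scarce. The member nearest to a call was Ctnna1, whose 3 cervical values all lay below its 3 thoracic values. The set is thus described mainly by its levels, and by how narrowly the intervals bound any difference.

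Library totals were 32103071 to 33790634 counts, apart from thoracic replicate 1 with 53186131. The 8 motor neuron markers (such as Isl1, Mnx1 and Chat) all had counts, and summed to 309.1 to 635.8 CPM (the count as a rate per library total, with TMM scaling) in cervical and 372.7 to 579.2 CPM in thoracic libraries. The 9 interneuron markers summed to 1254 to 1360 CPM in the cervical libraries and 1018 to 1079 CPM in the thoracic libraries, and the 6 neural progenitor markers to 474.7 to 670.9 and 553.9 to 753.1 CPM by region in the same order. The libraries therefore held other neural cells. In such bulk RNA, fewer cells of a type and less RNA per cell cannot be told apart, and a value cannot be assigned to motor neurons.

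Levels of different genes were compared as CPM per kilobase of exon, since longer transcripts collect more reads. Ctnnb1 was the most abundant member, at 79.1 ± 1.24 CPM per kilobase in cervical and 79.2 ± 5.10 in thoracic libraries (SD, n = 3 each). Cdh2 followed with 47.4 ± 1.39 and 48.5 ± 4.04 CPM per kilobase in cervical and thoracic libraries, then Ctnna2 with 40.7 ± 1.31 and 39.5 ± 6.22, and Ctnnd2 with 24.0 ± 1.42 and 21.1 ± 2.23. This order held in each of the 6 libraries, and the ranges of these 4 genes over the libraries did not overlap. Cdh4 (10.2 to 13.6 CPM per kilobase) lay above Ctnna1 (8.41 to 10.5) in 6 of 6 libraries, though their ranges overlapped. Scaled by all its exonic bases, Ctnnd1 (5.71 to 7.29) did not differ from Cdh13 (6.04 to 7.63) beyond their spread, and was above Cdh13 in 3 of 6 libraries. Over only the 2837 bases not shared with Gm28635, a gene at 0 counts, Ctnnd1 stood at 14.7 to 18.8. That range lay above those of Cdh4, Ctnna1 and Cdh13. Cdh3 stood at 0.0770 to 0.236 and Cdh1 at 0.00675 to 0.0805 CPM per kilobase.

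**Figure D1:**
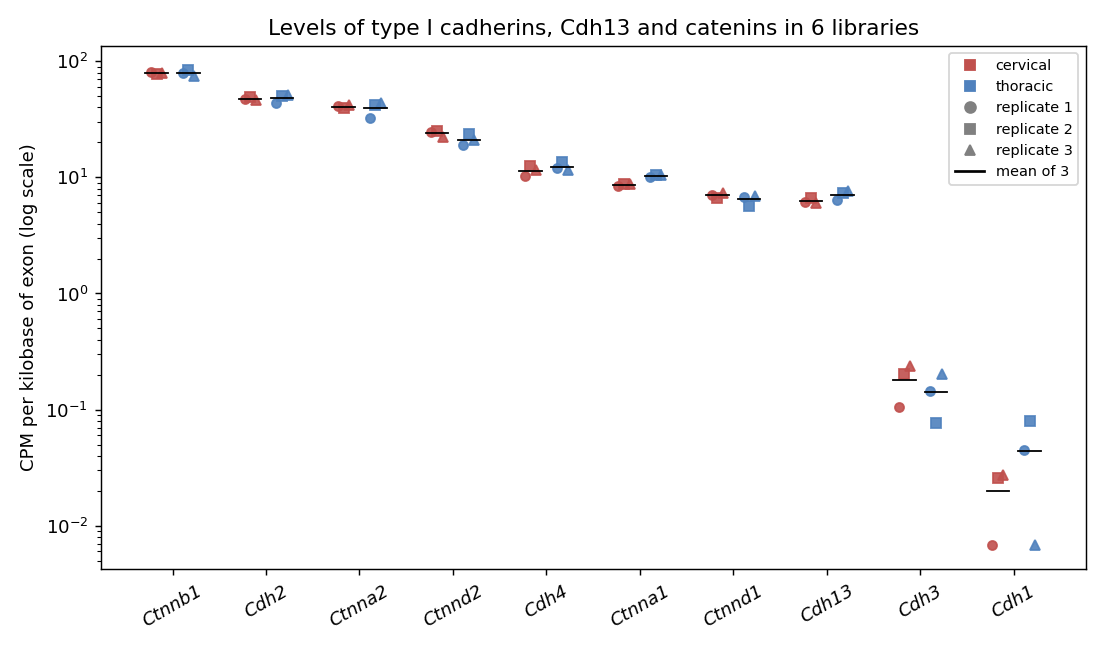
Level of each gene in CPM per kilobase of exon (log axis) in each of the 6 libraries, with cervical libraries in red left of thoracic libraries in blue and a bar at the mean of 3. The regions lie close together for the 8 genes from Ctnnb1 to Cdh13, whereas Cdh3 and Cdh1 lie far below and spread widely. Ctnnd1 is scaled by all its exonic bases, those shared with Gm28635 included.

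Summed per length, the 4 type I cadherins of the set stood at 59.0 ± 2.30 CPM per kilobase in cervical and 61.1 ± 4.27 in thoracic libraries. The alpha-catenins of the set stood at 49.4 ± 1.26 and 49.8 ± 6.39 in the same order. In each library Ctnnb1 alone exceeded both sums. The delta-catenins summed to 31.7, 31.6 and 29.6 CPM per kilobase in the 3 cervical libraries, against 25.8, 29.1 and 27.8 in the 3 thoracic libraries. Their sums did not overlap between regions, although each gene alone did. Taken singly, 13.7% of all tested genes had no overlap, which is the share to set beside each case of no overlap here. The sums scale Ctnnd1 by all of its 7319 exonic bases, of which 4482 are shared with Gm28635, as set out below. These sums are descriptions of the libraries and carry no test.

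Among the type I cadherins, Cdh2 and Cdh4 made up nearly all of the measured level. Cdh2, N-cadherin, the main classical cadherin of neural tissue, lies on chromosome 18 from 16721934 to 16942303 (mm39, minus strand). It stood at 379.4, 394.8 and 373.1 CPM in cervical replicates 1, 2 and 3, and at 354.3, 405.7 and 414.6 CPM in thoracic replicates 1, 2 and 3. The cervical values lay inside the range of the thoracic ones. The log2 fold change, cervical minus thoracic here and throughout, was -0.034 (SE 0.069, edgeR adjusted p = 0.958), and without thoracic replicate 3 it was 0.0097. Per length, Cdh2 held 80.4 ± 1.47% of the summed level of Cdh1 to Cdh4 in cervical and 79.4 ± 1.83% in thoracic libraries.

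Cdh4, R-cadherin, can bind N-cadherin on neighbouring cells as well as itself, and lies on chromosome 2 from 179084224 to 179541166 (plus strand). It stood at 73.9, 90.5 and 84.1 CPM in cervical libraries 1 to 3, and at 87.8, 98.7 and 83.2 CPM in thoracic libraries 1 to 3. The groups overlapped, with the lowest value in cervical replicate 1 and the highest in thoracic replicate 2. The log2 fold change was -0.12 (SE 0.088, edgeR adjusted p = 0.824), and moved to between -0.19 and -0.042 when a library was left out. Cdh4 was 19.4 ± 1.38% of the summed Cdh2 and Cdh4 level per length in cervical libraries and 20.4 ± 1.86% in thoracic libraries.

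Cdh1 and Cdh3 are the classical cadherins best known from epithelia, and are neighbours on chromosome 8, with Cdh3 (P-cadherin) from 107237523 to 107283929 and Cdh1 (E-cadherin) from 107329983 to 107396878, both on the plus strand. Cdh1 had 1, 4 and 4 counts in cervical replicates 1, 2 and 3, and 11, 12 and 1 counts in thoracic replicates 1, 2 and 3. For the highest of these, 12 counts, the exact 95% Poisson interval was 6.20 to 21.0, and for a single count 0.0253 to 5.57, both covering counting error only. Cdh1 did not pass the low-count filter and was not tested, and the groups overlapped.

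Cdh3 had 15, 30 and 33 counts in the cervical replicates and 34, 11 and 29 counts in the thoracic replicates, or 0.465, 0.880 and 1.03 CPM against 0.635, 0.337 and 0.895 CPM. Neither region was consistently higher. The log2 fold change was 0.35 (SE 0.45, edgeR adjusted p = 0.927), with a 95% interval from -0.65 to 1.35, and ranged from 0.069 to 0.67 when a library was left out. The ends of that interval correspond to 2.54-fold higher and 1.57-fold lower in cervical libraries, the widest interval of the tested members. The 7 epithelial markers summed to 0.992 to 1.63 CPM in the cervical libraries and 1.08 to 1.42 CPM in the thoracic libraries, with Krt5 at 0 and Krt14 at 1 count over all 6 libraries.

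Cdh13, T-cadherin, is attached to the membrane by a lipid anchor, has no cytoplasmic tail and so does not bind catenins, and serves as a receptor for adiponectin. The gene spans chromosome 8 from 119010472 to 120051660 (plus strand). It stood at 69.3, 75.1 and 67.9 CPM in cervical libraries 1 to 3, and at 71.1, 82.2 and 85.7 CPM in thoracic libraries 1 to 3. Each cervical library lay below the thoracic library of the same replicate number, by 0.037, 0.13 and 0.33 on the log2 scale in replicates 1, 2 and 3 (0.5 added to each CPM), but the groups overlapped. The fitted difference was a log2 fold change of -0.17 (SE 0.081, edgeR unadjusted p = 0.0595 and adjusted p = 0.618). Without thoracic replicate 1 it was -0.25 (edgeR adjusted p = 0.377).

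The alpha-catenins gave the smallest and 1 of the larger adjusted p of the set. Ctnna1, alpha-E-catenin, is widely expressed, also in neural progenitors, and spans chromosome 18 from 35251912 to 35387832 (plus strand). It stood at 54.0, 56.6 and 56.5 CPM in cervical replicates 1, 2 and 3, and at 65.1, 67.6 and 66.7 CPM in thoracic replicates 1, 2 and 3. All cervical values lay below all thoracic values, with little spread within a region. Fitted over all libraries, the log2 fold change was -0.25 (SE 0.064, 95% interval -0.39 to -0.11), or 1.19-fold lower in cervical libraries. This did not pass over all genes (edgeR unadjusted p = 0.00222, adjusted p = 0.159, and 0.0852 with the replicate number as a block). The adjusted p ranged from 0.0567 with DESeq2 to 0.400 without cervical replicate 3, over the 13 alternatives.

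Markers of other cells were examined beside Ctnna1, and none of the neural progenitor, floor plate and mesenchyme markers was called in the fit with region only. With the replicate block, Nes, Shh, Foxa2, Col1a1 and Col3a1 were called, all lower in cervical libraries. Their blocked edgeR adjusted p were 0.000903, 0.00649, 0.0354, 0.0122 and 0.0331 in that order, where the block called 1.97% of all tested genes. The 8 motor neuron markers had a lower mean in cervical libraries for 5 and a higher one for 3, and 0 were called with region only. The block called Isl1 and Slc18a3, both lower in cervical libraries (blocked edgeR adjusted p of 0.00105 and 0.0303). Of the 6 neural progenitor markers, 5 had a lower mean in cervical libraries, none was at 0, and their sum was lower in the cervical library at each replicate number, although the groups overlapped. The 2 floor plate markers, Shh and Foxa2, summed to 9.18 to 30.1 CPM in the cervical libraries and 38.7 to 53.8 CPM in the thoracic libraries with no overlap. All 6 mesenchyme markers had a lower mean in cervical libraries, and none was at 0. Their sums were 14.7, 25.6 and 155.7 CPM in cervical replicates 1, 2 and 3 and 86.5, 107.0 and 160.8 CPM in thoracic replicates 1, 2 and 3, so the groups overlapped. All 4 endothelium markers also had a lower mean in cervical libraries. By contrast, 0 of 5 sensory ganglion, 0 of 5 erythroid and 1 of 4 macrophage markers had a lower mean there. Of the 5 Schwann and neural crest markers 2 had, and their sums were 240.0 to 260.1 CPM in cervical and 188.4 to 197.6 CPM in thoracic libraries. Most of that was Foxd3, which was called higher in cervical libraries (edgeR adjusted p = 0.0207). The part of any of these cells in the Ctnna1 values was not tested.

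Ctnna2, alpha-N-catenin, is the form of neurons and spans chromosome 6 from 76858620 to 77956682 (minus strand). It stood at 285.3, 272.8 and 290.5 CPM in cervical libraries 1 to 3, and at 224.8, 294.6 and 303.7 CPM in thoracic libraries 1 to 3. Thoracic replicate 1 was the lowest of all, and the other thoracic libraries were above every cervical one. Between regions the log2 fold change was 0.045 (SE 0.099, edgeR adjusted p = 0.961), and without thoracic replicate 1 it was -0.084. As a share of the summed alpha-catenin level per length, Ctnna2 made up 83.0, 81.7 and 82.6% in the cervical replicates and 76.2, 80.1 and 80.8% in the thoracic replicates. These shares did not overlap, where 13.7% of all tested genes had no overlap in their own levels. The mean difference of 3.40 percentage points was between 1.96 and 4.29 when a library was left out. A share over members carries no test here.

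Alpha-catenin genes hold a leucine-rich repeat synaptic gene of the Lrrtm family on the opposite strand within their span, which bears on how reads can be assigned. These genes were picked after the values were seen. Lrrtm2 lies inside Ctnna1 and shares 95 of its exonic bases, and stood at 43.8 ± 0.622 CPM in the cervical libraries and 48.0 ± 0.923 CPM in the thoracic libraries (log2 fold change -0.13 with SE 0.068, adjusted p = 0.675 in edgeR). The regions did not overlap for Lrrtm2, as for Ctnna1, where 13.7% of all tested genes had no overlap. Lrrtm1 lies inside Ctnna2 and shares no exonic base with it, and stood at 40.2 ± 5.50 and 41.1 ± 3.83 CPM in cervical and thoracic libraries (SD, n = 3 each). The third alpha-catenin, Ctnna3, stood at 6.79 ± 0.625 CPM in the cervical libraries and 7.55 ± 1.33 CPM in the thoracic libraries, below Lrrtm3 within it (42.4 ± 2.04 and 40.7 ± 2.42 CPM). Since the sources used here give no strand setting for the counting, reads over the 95 shared bases cannot be told apart.

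**Figure D2:**
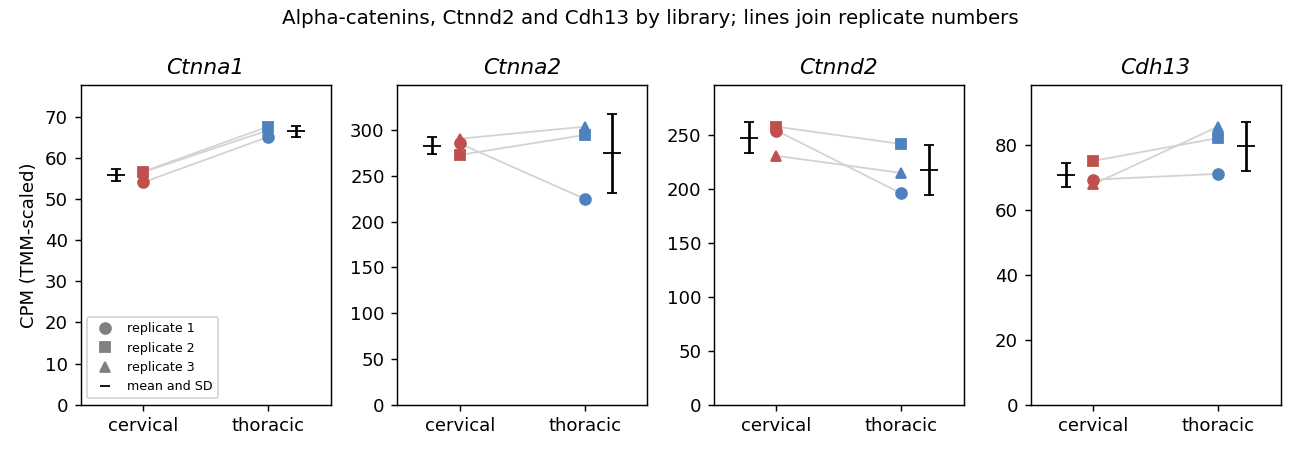
CPM of Ctnna1, Ctnna2, Ctnnd2 and Cdh13 in each library, cervical left of thoracic, with lines joining libraries of the same replicate number and bars for mean and SD of 3 (axes from 0). The Ctnna1 groups (54.0 to 56.6 against 65.1 to 67.6 CPM) are separate, while in the other panels they overlap and thoracic replicate 1 is the lowest thoracic value.

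Ctnnb1, beta-catenin, links cadherins to alpha-catenin and lies on chromosome 9 from 120758282 to 120789573 (plus strand). It stood at 417.9, 405.7 and 408.2 CPM in cervical replicates 1, 2 and 3, and at 408.1, 439.0 and 386.3 CPM in thoracic replicates 1, 2 and 3. The cervical libraries lay within the thoracic range. It had a log2 fold change of -0.0019 (SE 0.062, edgeR adjusted p = 0.998), with a 95% interval from -0.14 to 0.14, so that a difference of more than 1.10-fold either way lay outside it. Leaving out 1 library gave values from -0.045 to 0.049. Over the 6 libraries Ctnnb1 had a coefficient of variation of 4.20%, the lowest of the members. It shares 759 exonic bases with Ulk4 on the opposite strand, which stood at 8.29 ± 0.273 CPM in the cervical libraries and 8.24 ± 0.827 CPM in the thoracic libraries.

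Of the delta-catenins, Ctnnd2 is the neural form and Ctnnd1, p120-catenin, the widely expressed one. Ctnnd2 lies on chromosome 15 from 30172739 to 31029487 (plus strand) and stood at 253.9, 257.5 and 230.5 CPM in cervical libraries 1 to 3, and at 195.6, 241.4 and 214.6 CPM in thoracic libraries 1 to 3. At each replicate number the cervical library was the higher, by 0.38, 0.093 and 0.10 on the log2 scale, although the groups overlapped. Its fitted log2 fold change was 0.19 (SE 0.080, 95% interval 0.011 to 0.36) and was not called (edgeR unadjusted p = 0.0391, adjusted p = 0.538). Its range was 0.11 without thoracic replicate 1 to 0.27 without thoracic replicate 2. Of the 9 interneuron markers, 7 had a higher mean in cervical libraries and none was at 0. Pax2 and Slc6a5 were called, both higher in cervical libraries (edgeR adjusted p of 0.0462 and 0.0417, where 0.542% of all tested genes were called). The replicate block added Gad2, also higher there (edgeR adjusted p = 0.0280). The sums of the 9 markers did not overlap between the regions, unlike Ctnnd2 itself. The part of interneurons in the Ctnnd2 values was not tested.

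Ctnnd1 lies on chromosome 2 from 84430415 to 84481109 (minus strand) and stood at 51.8, 48.7 and 53.4 CPM in cervical libraries 1 to 3, and at 49.7, 41.8 and 51.0 CPM in thoracic libraries 1 to 3. At each replicate number the cervical library was higher, by 0.059, 0.22 and 0.065 on the log2 scale in replicates 1, 2 and 3, but the groups overlapped, with thoracic replicate 2 the lowest. The fitted difference was a log2 fold change of 0.11 (SE 0.088, edgeR adjusted p = 0.840), and 0.028 without thoracic replicate 2. Of its 7319 exonic bases, 4482 are also listed for Gm28635 on the same strand, which had a count of 0 in all libraries. A read within the shared bases fits both genes, and counting it for both would have given Gm28635 counts. Such reads were therefore not counted for both, and the Ctnnd1 level of 6.75 CPM per kilobase is probably too low. Over the other 2837 bases alone it would be 17.4 CPM per kilobase. Reads that cross the edge of the shared bases may still have been counted, so its exact place in the order of levels is uncertain. Ctnnd2 made up 77.3 ± 1.79% of the delta-catenin level per length in cervical and 76.3 ± 3.59% in thoracic libraries, or 57.0 ± 2.50% and 55.7 ± 5.02% over the unshared bases.

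Across the set, 9 of the 10 members passed the low-count filter and 0 of these 9 were called at an adjusted p below 0.05 (quasi-likelihood test of edgeR, Benjamini-Hochberg adjusted over 21972 genes, of which 0.542% were called). DESeq2, limma-voom and the fit with the replicate block also called 0, where the block called 1.97% of all tested genes. At an unadjusted p below 0.05 there were 2 members, Ctnna1 and Ctnnd2, beside 8.47% of all tested genes. With the replicate block there were 3, the same 2 and Cdh13 (edgeR unadjusted p = 0.0403, adjusted p = 0.430), beside 10.7% of all tested genes. Of the 9, only Ctnna1 had no overlap between regions, as did 13.7% of all tested genes. Log2 fold changes were above 0 for 4 members and below 0 for 5, with a median of -0.0019 against 0.0083 over all tested genes, and a median size of 0.12 against 0.13.

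The 95% intervals of the 8 abundant members ran from 1.31-fold lower (Ctnna1) to 1.29-fold higher (Ctnnd2) in cervical libraries at their outer ends, and so lay inside 1.5-fold either way. These intervals come from the fit with region as the only term, without the replicate block. A fitted fold of at least 1.5 was found for 8.03% of all tested genes. A p that misses the threshold does not show equal levels, and differences smaller than these bounds were not resolved. The 8 members had coefficients of variation of 4.20 to 10.3% over the 6 libraries with a median of 9.61%, where the 5492 tested genes with a mean of at least 40 CPM had a median of 5.82%.

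**Figure D3:**
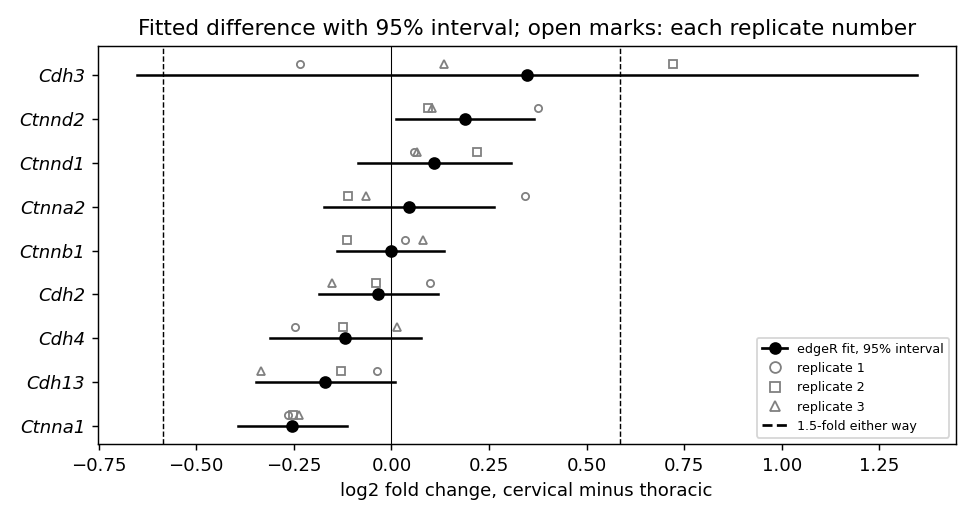
Log2 fold change, cervical minus thoracic, of the 9 tested members with 95% intervals (black) and the difference at each replicate number (open grey marks), with dashed lines at 1.5-fold either way. Only the interval of Cdh3 reaches past the dashed lines, and the 3 marks of Ctnna1 lie together at -0.27 to -0.24.

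Other genes of cadherin-catenin adhesion were counted in the same fit. Of 14 other classical cadherins tested, 1 was called, Cdh12, a type II cadherin, at 22.6 ± 1.08 CPM in the cervical libraries and 14.2 ± 1.68 CPM in the thoracic libraries (log2 fold change 0.67 with SE 0.11, adjusted p = 0.0302 in edgeR). Cdh12 was not called without cervical replicate 2 or 3 or thoracic replicate 1 or 2 (edgeR adjusted p of 0.130, 0.109, 0.0999 and 0.1001). With the replicate block 3 were called, adding Cdh7 (log2 fold change 0.36, adjusted p = 0.127 in edgeR, blocked 0.0359) and Cdh6 (-0.33, edgeR adjusted p = 0.439, blocked 0.0476), both type II cadherins. Cdh7 was also called by DESeq2 (adjusted p = 0.0163), and both were called by edgeR with no low-count filter (adjusted p of 0.00566 for Cdh7 and 0.000464 for Cdh6). The most abundant of this list per length was Cdh24, at 84.2 ± 6.41 CPM in the cervical libraries and 82.3 ± 8.09 CPM in the thoracic libraries. Cdh15 was scarce, at 1.4 ± 1.1 and 0.98 ± 0.48 CPM in cervical and thoracic libraries.

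The 15 adherens junction partners, which include vinculin (Vcl), afadin (Afdn), plakoglobin (Jup) and the nectins, were all tested and 0 were called, with 2 at an unadjusted p below 0.05. All 15 had a log2 fold change below 0, with a median of -0.087, where 10525 of the 21972 tested genes lay below 0. The count below 0 was 15 under each of the 3 scalings, 12 without cervical replicate 3, and 13 without thoracic replicate 2 or 3, and 15 under the other alternatives. DESeq2 called 1 of the list, Jup, and edgeR with no low-count filter called 2, Jup (adjusted p = 0.0412) and Nectin3 (log2 fold change -0.32, adjusted p = 0.000751). Jup, a close relative of beta-catenin, had the smallest p of the list, at 47.1 ± 1.43 CPM in the cervical libraries and 57.8 ± 1.58 CPM in the thoracic libraries with no overlap (log2 fold change -0.29 with SE 0.068, adjusted p = 0.118 in edgeR, and 0.0191 with DESeq2). The most abundant per length, Nectin1, stood at 251.8 ± 9.55 and 254.5 ± 8.11 CPM in cervical and thoracic libraries. Of the marker values given beside Ctnna1, those of progenitors, floor plate, mesenchyme and endothelium run mostly in the same direction as this list. Those of sensory ganglion and erythroid cells run in the other direction. The part of these cells in the list was not tested.

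Genes that act on beta-catenin outside the junction gave no call. Of 10 genes of its turnover, which include the scaffold and kinase genes of the destruction complex, 0 were called, and log2 fold changes lay between -0.087 and 0.12. Apc2, a neural relative of Apc, was the most abundant, per length and in CPM, at 1502 ± 85.3 CPM in the cervical libraries and 1459 ± 17.3 CPM in the thoracic libraries, and Btrc, which marks beta-catenin for degradation, had the smallest p (log2 fold change 0.12, adjusted p = 0.685 in edgeR). Of 10 nuclear partners 0 were called, with 2 at an unadjusted p below 0.05. Bcl9l, a co-activator, stood at 126.7 ± 6.24 CPM in the cervical libraries and 143.9 ± 4.28 CPM in the thoracic libraries (log2 fold change -0.18, adjusted p = 0.332 in edgeR), and its relative Bcl9, the most abundant of the list per length, at 276.1 ± 4.36 and 270.6 ± 8.43 CPM. Of the TCF/LEF factors that beta-catenin binds on DNA, Lef1 stood at 0.750 ± 0.139 and 1.02 ± 0.248 CPM in cervical and thoracic libraries.

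Of 8 tested repressors and proteases of cadherins, Zeb2, a repressor of Cdh1 in epithelia, was lower in cervical libraries (108.0 ± 2.02 CPM against 142.8 ± 15.6 CPM in thoracic ones, log2 fold change -0.40, adjusted p = 0.0484 in edgeR). That call was lost whichever of the 6 libraries was left out (edgeR adjusted p of 0.0631 to 0.219) with limma-voom (0.0653) and with a mean CPM of at least 1 (0.0521), while the log2 fold change stayed between -0.45 and -0.31. Zeb2 shares 653 exonic bases with Zeb2os on the opposite strand. Its relative Zeb1 stood at 117.7 ± 3.09 CPM in the cervical libraries and 122.8 ± 5.42 CPM in the thoracic libraries. Snai1 stood at 0.978 ± 0.225 and 0.963 ± 0.176 CPM in cervical and thoracic libraries. Adam10, a protease that cleaves N-cadherin, was the most abundant per length at 176.7 ± 12.3 CPM in the cervical libraries and 173.0 ± 5.54 CPM in the thoracic libraries.

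**Figure D4:**
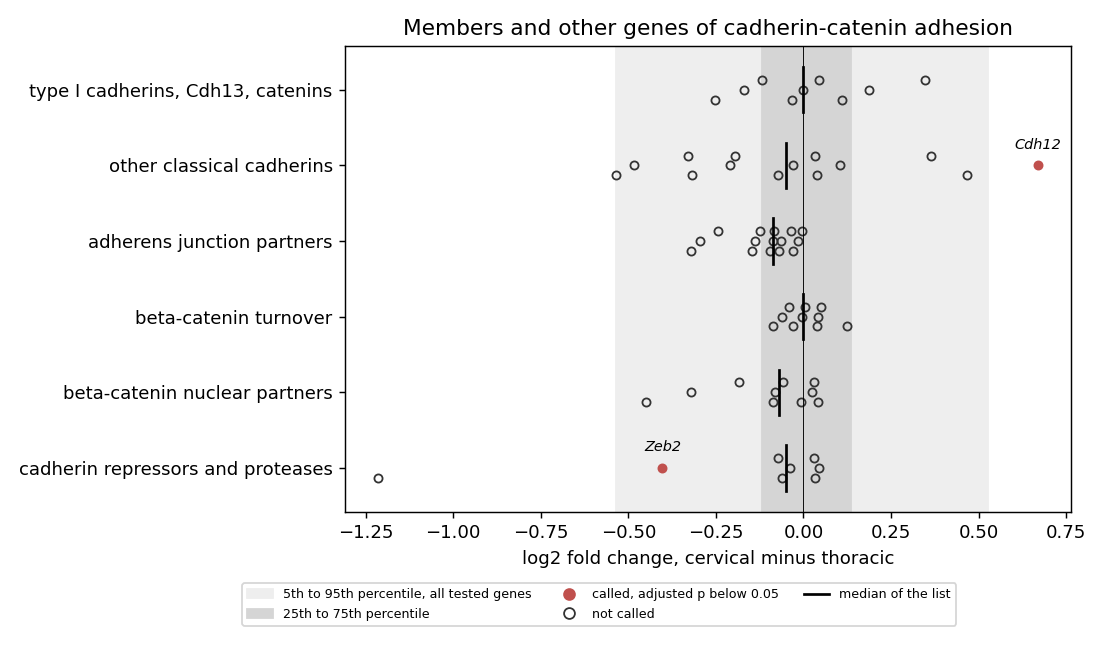
Log2 fold change, cervical minus thoracic, of each tested member and of each tested gene in 5 lists of related genes, with the median of each list as a bar, called genes filled in red, and bands from the 5th to the 95th (pale) and from the 25th to the 75th percentile (dark) of all tested genes. Members lie between -0.25 and 0.35, and the called genes are Cdh12 and Zeb2.

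By pattern over the 6 libraries, the genes most like Ctnna1 among 17086 genes with a mean of at least 1 CPM were Ahi1, Ripk1 and Dpp6. Their log2 values, each centred on its own mean, differed from those of Ctnna1 by an average of 0.019, 0.020 and 0.021 per library. None of these 3 was called (edgeR adjusted p of 0.182, 0.599 and 0.188). For Cdh3, the member with the widest spread, the nearest were Cox16, Gm37588 and Gm43857, with average differences of 0.053, 0.066 and 0.068. Cdh3 had 11 to 34 counts per library, so its values carry a large counting error.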

How the data were processed

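The deposited table gives raw read counts for each gene, its exonic length and mm39 coordinates, made by the authors with FastQC 0.11.9, STAR 2.7.5b and featureCounts 2.0.1, per the submitters' processing notes. Library totals were 32103071 to 53186131. Genes were filtered with edgeR 4.0.16 in R 4.3.3 (minimum count 10), leaving 21972 of 56805 genes, scaled by TMM (0.9893 to 1.01) and fitted by quasi-likelihood with region as the only term, with Benjamini-Hochberg adjustment over all tested genes and a threshold of 0.05. Standard errors are the log2 fold change (sign dropped) over the root of the F statistic, and 95% intervals use the fit's degrees of freedom. Alternatives were a replicate block, median-of-ratios scaling, library totals, no filter, a mean CPM of at least 1, DESeq2 1.42.0, limma-voom (limma 3.58.1) and leaving out each library.

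Replicate numbers come from the titles. Same-numbered libraries deviated together from their region means, with correlations of 0.258, 0.247 and 0.332 over 17086 genes, all over 0.1, so the numbers were taken to pair the libraries. Unless another setting is named, the fold changes, standard errors, intervals and p-values do not use this pairing. The replicate block, which does, is given as an alternative. Within a region, chi-square over its degrees of freedom between pairs of libraries was 10.1 to 16.2, where counting noise gives about 1. No pair thus differed by counting noise alone, and each library was counted as 1 sample. This cannot show separate embryos, since libraries prepared apart from the same RNA could also exceed 1.

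The members and lists were chosen with earlier results of these data known. Named in each related list were genes called with or without the block, the one with the smallest adjusted p and the most abundant per length. Vcl, Afdn, Cdh15, Tcf7, Tcf7l1, Tcf7l2, Lef1, Zeb1, Snai1, Ctnna3, Ulk4, Gm28635 and the Lrrtm genes were added after their values were seen. The supplied reference is of another build and no coordinates were taken from it.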

Additional observations from a re-analysis of the deposited data

How the results depend on the processing

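No member was called under any of the 13 alternatives, the replicate block included. Of 116 member values under the alternatives, 110 kept their direction and 6 did not, all of these in Cdh2, Ctnna2 and Ctnnb1, whose log2 fold changes were near 0. Leaving out 1 library gave -0.10 to 0.0097 for Cdh2, -0.084 to 0.12 for Ctnna2 and -0.045 to 0.049 for Ctnnb1, and limma-voom gave 0.00028 for Ctnnb1. Among related genes not called, leaving out 1 library turned the direction of Cdh24 (-0.028 to 0.11), Nectin1 (-0.041 to 0.013), Apc2 (-0.0056 to 0.066) and Adam10 (-0.015 to 0.084). The count of 119 called genes over the whole table was 432 with the replicate block, 408 with DESeq2, 747 with no low-count filter, and 9 to 159 when a library was left out (9 without cervical replicate 3, 37 without thoracic replicate 2, 41 without cervical replicate 2, 45 without thoracic replicate 3). The cause of these shifts was not tested. The block changed no call of a member, and among related genes it added Cdh6 and Cdh7. Leaving out 1 library moved the difference in share, in percentage points, to between 1.96 and 4.29 for Ctnna2, -0.308 (without thoracic replicate 1) and 3.08 for Ctnnd2, 0.125 and 2.03 for Cdh2, and -2.07 and -0.207 for Cdh4, each by less than the mean of the SDs of the 2 regions. Depth limits Cdh1 and Cdh3, with at most 12 and 34 counts per library.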
